A study of Homo sapiens with 3 samples.

Results

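The genes described here build the contacts between epithelial cells: CDH1, CDH3 and CTNNB1 of the adherens junction, CLDN1, CLDN4, CLDN7, OCLN, TJP1 and F11R of the tight junction, and the adhesion molecule EPCAM. They were taken as every probe set that the platform annotation gives to 1 gene symbol on that list of 10 genes. No probe set was listed with F11R as its only symbol, so 9 genes were measured, by 18 of the 54613 probe sets that are not controls. In the whole data set 19775 genes were compared. RNA came from KYSE140, a human cell line established from a squamous cell carcinoma of the oesophagus. There was 1 untreated array, and there were 2 arrays, B1 and B2, of cells given the DNA-crosslinking drug cisplatin for 12 h at a concentration labelled 10 mM. Cultured cells usually receive micromolar cisplatin, so the labelled unit is in doubt. The labels name no genetic change in any group and do not say whether B1 and B2 were separate cultures, so the p-values cover no more than the spread among these arrays, which may be technical.

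Adherens junctions hold neighbouring cells together through cadherins, whose tails bind beta-catenin and, through alpha-catenin, the actin cytoskeleton. Tight junctions seal the space between cells with strands of claudins and occludin, which scaffold proteins of the zonula occludens family tie to actin. Beta-catenin also acts outside junctions, where a complex marks it for destruction and surviving protein works with TCF and LEF factors in the nucleus. Squamous epithelium of the oesophagus carries E- and P-cadherin, and its normal cells have little EPCAM, which many carcinomas gain.

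Values are log2 intensities, and differences are cisplatin minus untreated. A gene is represented by its brightest probe set. The others are given beside it for the junction genes and for some of the other named genes. Array B2 stood apart: log2 differences over all genes had an SD of 0.56 between B2 and B1, against 0.33 between B1 and untreated. Squamous markers ranged from bright to dim. In the untreated array the basal keratin KRT5 read 1217, SFN 8776 and S100A2 9444, while KRT13 (66.0), KRT16 (75.3) and, below both, IVL were dim, and 3 of 14 listed markers, among them TP63, had no probe set of their own. The simple-epithelium keratins KRT18 (9975) and KRT8 (2921) were in the same bright range. No gene passed the limma test (0 of 19775, 0% called, smallest adjusted p = 0.969), and 565 genes, or 2.86%, had an unadjusted p under 0.05, of which the higher made up 0.764% and the lower 2.09% of all genes. The fit had 1 residual degree of freedom, so sizes and the agreement of both cisplatin arrays are described in what follows. Both differences share the untreated array, which was not replicated.

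Most junction genes, like most genes, stayed close to their untreated level. By the mean difference of both cisplatin arrays the 3 claudins were the highest and TJP1 the lowest of the 9. Within 0.5 log2 of untreated were 8 of the 9 in B1, beside 90.1% of all genes, and 6 in B2, beside 76.0%. The median gap between B1 and B2 was 0.49 over the 9, 0.21 over all genes and 0.29 over genes whose mean log2 value reached 6. By representative probe set, CLDN1, CLDN4 and CLDN7 were higher in both cisplatin arrays, EPCAM, OCLN and TJP1 were lower in both, and CDH1, CDH3 and CTNNB1 were split. Of all genes, 39.2% lay above and 27.4% below untreated in both arrays, or 29.8% and 34.2% among the 10209 genes whose mean log2 value reached 6, as all 9 junction genes did. The 3 of 9 in each direction are near those shares. CLDN1 reached 6 only through B2: its log2 values were 5.72 untreated, 5.85 in B1 and 7.90 in B2. None of the 9 was at least 2-fold higher in both arrays (0.142% of all genes) or at least 2-fold lower in both (0.678%). None passed limma or had an unadjusted p under 0.05; the smallest unadjusted p by limma was 0.155, for CLDN4. The median difference over the 9 was -0.044 in B1 and 0.29 in B2, beside 0.027 and 0.055 over all genes.

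**Figure D1:**
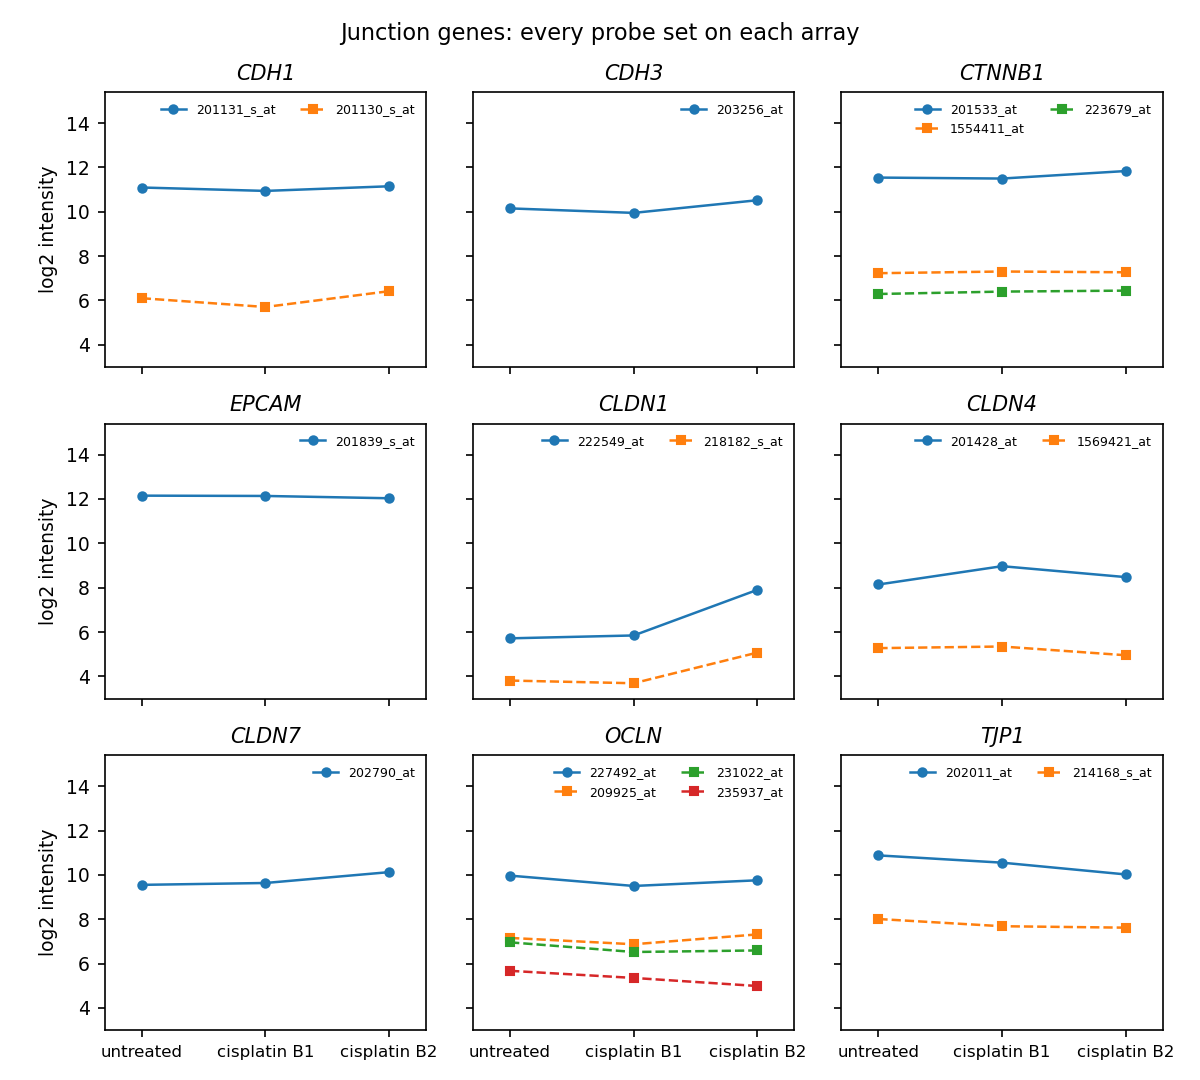
Log2 intensity of each probe set of the 9 measured junction genes in the untreated array and in cisplatin arrays B1 and B2, with 1 point per array; solid lines mark the probe set that represents the gene and dashed lines the others. Both probe sets of CLDN1 are highest in B2, both of TJP1 are highest in the untreated array, and EPCAM stays between 12.03 and 12.15.

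CDH1 encodes E-cadherin, the main adhesion receptor of epithelial adherens junctions. Its brighter probe set gave intensities of 2186 (untreated), 1965 (B1) and 2271 (B2). The untreated value lay between those of the cisplatin arrays, and the log2 differences were -0.15 and 0.055 (mean -0.049, SE 0.21 by limma, adjusted p = 0.986). The dimmer probe set gave 68.7, 52.2 and 85.6, again with the untreated array in the middle.

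CDH3, the gene for P-cadherin of basal squamous cells, lies next to CDH1 in the genome annotation. Its only probe set read 1138 untreated, 989 in B1 and 1469 in B2. The order of the arrays was that of CDH1: lowest in B1 and highest in B2, with differences of -0.20 and 0.37. The gap between the cisplatin arrays, 0.57, exceeded the mean difference of 0.083 from untreated.

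CTNNB1 encodes beta-catenin, the link from cadherin tails to alpha-catenin and the partner of TCF factors. The brightest of its 3 probe sets read 2981, 2892 and 3657 in the untreated, B1 and B2 arrays. B2 was the high array, by 0.29, and B1 lay slightly below untreated, at -0.044. The second probe set differed by 0.076 and 0.042 and the dimmest by 0.11 and 0.15, so that 2 of 3 were slightly higher in both arrays. Averaged over all 3 probe sets, CTNNB1 differed by 0.047 in B1 and 0.16 in B2.

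EPCAM, a homophilic adhesion molecule that also stabilises CLDN7 at the cell surface, was the steadiest of the 9. Its intensity was 4545 untreated, 4503 in B1 and 4190 in B2. The 3 values lay within 0.12 on the log2 scale, with a mean difference of -0.066 (SE 0.19). The B2 value was the lowest.

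Claudins form the sealing strands of tight junctions, and CLDN1 is the claudin of the epidermal and squamous barrier. The brighter CLDN1 probe set had intensities of 52.6 untreated, 57.6 in B1 and 239 in B2. The untreated and B1 values lie in the dim range, below a log2 value of 6, so folds start from a dim baseline. B2 alone was high, 4.55-fold over untreated (log2 difference 2.19), whereas B1 was at 1.09-fold (0.13). The second probe set was dimmer and showed the same array high, at 14.1, 12.9 and 33.7, or 2.40-fold in B2 and 0.920-fold in B1.

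CLDN1 was the only junction gene at least 2-fold from untreated in either cisplatin array. At least 2-fold higher values in B2 were found in 2.99% of all genes and 2.24% of all probe sets, and 99.8% of genes had a lower difference in B2 than CLDN1. At least 2-fold lower values in B2 were found in 4.5% of genes, and in B1 0.238% of genes were 2-fold higher and 1.51% 2-fold lower; no junction gene was among any of these. The SD between the CLDN1 values of B1 and B2 was 1.45, larger than the mean difference of 1.16 (SE 1.04 by limma, adjusted p = 0.969), so the mean does not exceed the replicate spread. Only 1.07% of all genes had as large a gap between B1 and B2.

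Markers of several cell types also differed in B2, not all in one direction. Of the 11 measured squamous markers 8 were above untreated in B2 and 3 below. The keratins KRT14 (278, 276 and 2372) and KRT5 (1217, 1345 and 4251) were high in B2, whereas KRT15 (253, 296 and 118) and KRT13 (66.0, 68.2 and 25.5) were low. The 11 summed to intensities of 26511 untreated, 24042 in B1 and 42432 in B2. Without S100A2 and SFN, whose intensities on the linear scale differed most from untreated in B2, they summed to 8291, 5246 and 14136. The lower B1 sum was carried by SOX2 (5656, 2416 and 5308). The 14 fibroblast markers summed to 645, 675 and 1738. Without VIM (78.8, 97.5 and 565) and CDH2, the other 12 gave 399.9, 445 and 555. Of these 12, 10 were above untreated in B2 and 2 below. THY1 (59.5, 61.6 and 144) and COL5A1 (28.6, 42.4 and 59.2) were high in B2, while DCN read 34.9, 35.0 and 35.6. A second VIM probe set was dim, at 4.81, 3.95 and 4.77. Simple-epithelium markers (11 genes) summed to 13636, 14164 and 8555, and without KRT18 and KRT8 to 739, 820.2 and 676. Leukocyte markers (11 genes) summed to 974, 944 and 345, a difference carried by LCP1 (722, 665 and 69.1): the other 10 gave 252, 278 and 276. Endothelial markers (10 genes) summed to 225, 281 and 250. The defining markers PTPRC of leukocytes (5.24 to 6.24) and PECAM1 of endothelium (40.9 to 55.1) stayed in the dim range. The part of these markers in the CLDN1 value was not tested.

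CLDN4, a claudin that tightens the barrier to sodium and serves as a receptor for a clostridial toxin, was the junction gene furthest above untreated in B1. Its brighter probe set read 283 untreated, 501 in B1 and 357 in B2. Both cisplatin arrays were above untreated, by 0.83 and 0.33, and 99.5% of genes had a lower difference in B1. The mean, 1.49-fold higher (log2 0.58, SE 0.31, adjusted p = 0.969), was larger than the SD of 0.35 between the cisplatin arrays. The second probe set was dim and did not follow it, at 38.7, 40.7 and 31.0. Averaged over both probe sets CLDN4 differed by 0.45 in B1 and 0.0066 in B2.

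CLDN7, the claudin that binds EPCAM, had 1 probe set, which read 750.4, 795 and 1116. B2 was the high array, by 0.57, and B1 was at 0.084. The mean of 0.33 was about the size of the SD of 0.35 between the cisplatin arrays.

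OCLN encodes occludin, the 4-pass membrane protein of tight junction strands. Its brightest probe set read 1001 untreated, 725 in B1 and 865 in B2. Both cisplatin arrays were below untreated, by 0.47 and 0.21 on the log2 scale (mean -0.34, SE 0.22, adjusted p = 0.969). Of its 4 probe sets 3 were lower in both arrays. The next-to-dimmest differed by -0.44 and -0.36, and the dimmest by -0.32 and -0.68. The exception, the second brightest, was lower in B1 (-0.29) and higher in B2 (0.16), and with quantile normalization its mean difference changed sign to 0.040. The annotation holds a transcribed pseudogene, OCLNP1, on the same chromosome, so signal of a near-identical copy cannot be told apart here.

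TJP1 encodes ZO-1, the scaffold that binds claudins, occludin and actin. Its brighter probe set read 1884 untreated, 1502 in B1 and 1040 in B2. Both cisplatin arrays were lower, by 0.33 and 0.86 on the log2 scale, which makes TJP1 the junction gene furthest below untreated on average (log2 -0.59, SE 0.32, adjusted p = 0.969). Its mean exceeded the SD of 0.38 between the cisplatin arrays. The second probe set read 258, 206 and 197, with differences of -0.33 and -0.39, so both probe sets were below untreated with cisplatin. In B2, 5.91% of genes had a lower difference than TJP1, and in B1 11.6%.

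Over all 18 probe sets of the 9 genes, 5 were higher in both arrays, 6 were lower in both and 7 were split. Of all probe sets 39.3% were higher and 28.3% lower in both, so these counts are near the background too. None of the 18 was at least 2-fold higher in both (0.233% of probe sets) or at least 2-fold lower in both (0.659%), and 0 passed limma when each probe set was fitted on its own (0 of 54613 in all).

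**Figure D2:**
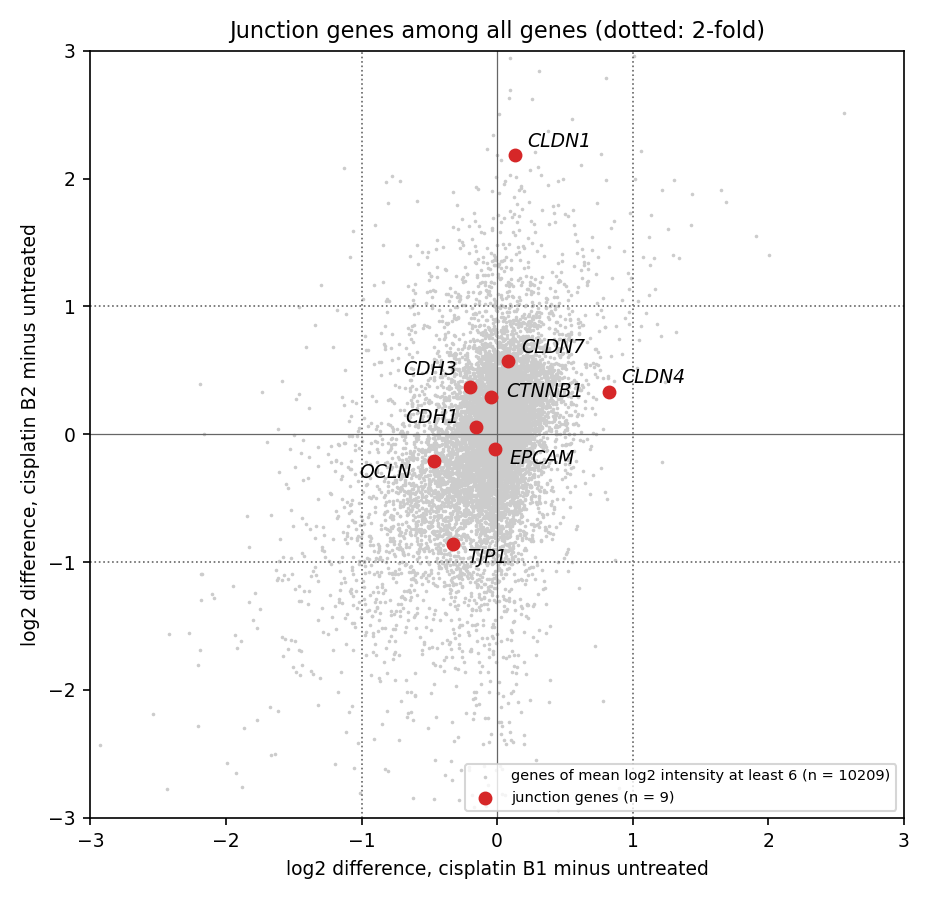
Log2 difference from untreated in cisplatin B1 (horizontal axis) against B2 (vertical axis) for the 9 junction genes, over 10209 genes whose mean log2 value reached 6; dotted lines mark 2-fold and 63 genes lie outside the axes. CLDN1 stands above the B2 line at 0.13 and 2.19, CLDN4 lies right of the others at 0.83 and 0.33, and TJP1 is lowest at -0.33 and -0.86.

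The stretches of 250 bases before the outermost annotated start are shown for the genes with the largest differences in either direction, since claudin, occludin and cadherin promoters are known targets of SNAI and ZEB repressors, which bind the E-box CAGGTG. Sequences are from RefSeq on GRCh38.p14, whose promoter table matched 6 of the 10 genes. They are written from 5′ to 3′ on the gene's strand. Capitals mark the E-box CAGGTG, the GC box GGGCGG of SP-type factors and the AP-1 site TGAGTCA, each searched on both strands; no 2 of these marks overlap.
CLDN1, chr3:190322447-190322696, minus strand: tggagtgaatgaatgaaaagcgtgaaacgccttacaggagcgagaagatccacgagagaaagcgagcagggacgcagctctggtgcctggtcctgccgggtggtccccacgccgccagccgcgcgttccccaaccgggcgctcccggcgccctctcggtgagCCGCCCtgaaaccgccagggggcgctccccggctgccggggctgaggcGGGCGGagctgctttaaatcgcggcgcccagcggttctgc
CLDN4, chr7:73830746-73830995, plus strand: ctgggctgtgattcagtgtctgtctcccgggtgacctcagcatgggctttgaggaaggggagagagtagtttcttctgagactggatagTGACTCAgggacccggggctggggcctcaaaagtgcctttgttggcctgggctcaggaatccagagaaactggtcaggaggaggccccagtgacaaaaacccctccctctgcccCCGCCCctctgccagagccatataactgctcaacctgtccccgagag
OCLN, chr5:69492297-69492546, plus strand: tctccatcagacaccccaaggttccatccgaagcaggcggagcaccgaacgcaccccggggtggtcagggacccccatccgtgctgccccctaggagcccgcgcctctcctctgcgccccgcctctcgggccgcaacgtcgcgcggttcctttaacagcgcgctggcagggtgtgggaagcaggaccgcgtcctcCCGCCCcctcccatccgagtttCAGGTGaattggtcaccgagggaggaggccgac
TJP1, chr15:29969050-29969299, minus strand: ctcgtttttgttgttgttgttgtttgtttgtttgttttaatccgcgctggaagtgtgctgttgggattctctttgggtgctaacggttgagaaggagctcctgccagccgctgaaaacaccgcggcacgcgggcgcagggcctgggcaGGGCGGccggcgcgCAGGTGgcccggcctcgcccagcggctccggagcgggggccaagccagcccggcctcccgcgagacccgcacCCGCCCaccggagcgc
Of the printed windows, those of OCLN and TJP1 hold the E-box and those of CLDN1 and CLDN4 do not. The window of a second OCLN start holds the E-box as well. TJP1 has 4 annotated starts, and the windows of its other 3 hold none, so its match depends on the start chosen. Of 35116 promoter windows of this length 17.5% hold it. The 4 windows each hold a GC box, as do 42.6% of windows. CLDN4 holds the AP-1 site, found in 4.2%. A second CLDN7 start has 4 E-boxes in its window, while the outermost CLDN7 window has none, and CTNNB1 has none. These matches describe the letters and say nothing of binding.

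Genes that work with the 9 were described through 8 lists, which held 156 genes, 143 of them measured. None of the 143 passed limma. An unadjusted p under 0.05 was found for 1 gene in the higher direction (0.764% of all genes) and 8 in the lower (2.09%). In both arrays 46 (32.2%) were higher and 48 (33.6%) lower, beside 39.2% and 27.4% of all genes. Of the 103 whose mean log2 value reached 6, 27 were higher and 38 lower, beside 29.8% and 34.2% of all such genes. Only OVOL1 was at least 2-fold higher in both arrays (0.142% of all genes), and 5 genes, MAGI3, PLEKHA7, GSK3B, TCF7L2 and ZNRF3, were at least 2-fold lower in both (0.678%).

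**Figure D3:**
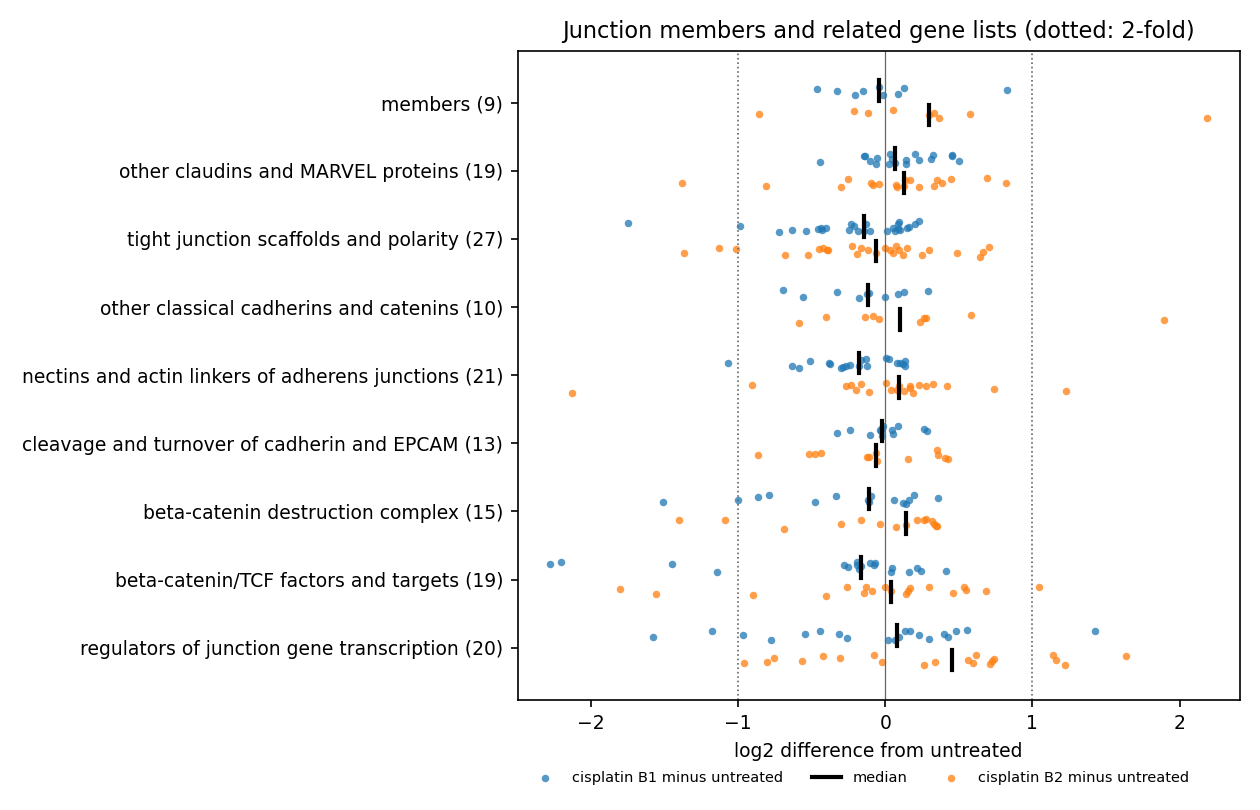
Log2 difference from untreated of each measured gene (points; blue B1, orange B2) in the 9 junction genes and 8 related lists, with the number of genes in brackets and black bars at the medians. The lowest points belong to beta-catenin/TCF factors, at -2.27 and -2.20 in B1, and to an actin linker at -2.13 in B2, while list medians lie between -0.18 and 0.45.

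Among other claudins and MARVEL-domain proteins (19 of 20 measured, only 8 with a mean log2 value reaching 6), 10 were higher in both arrays and 4 lower, and the medians were 0.069 in B1 and 0.13 in B2. CLDN15, a channel-forming claudin, read 154, 211 and 193, or 0.46 and 0.33 above untreated, while its dimmer probe set was at 0.11 and -0.063. MARVELD3, a relative of occludin, was at 0.20 and 0.45, and 3 of 3 probe sets were above untreated in each cisplatin array. CLDN11 differed by -0.10 and -0.30 on its brightest probe set, but 2 of its 3 probe sets lay above untreated in B1 and B2. Those 2 were dim, at 5.79, 7.74 and 12.2 and at 6.89, 7.79 and 7.77. CLDN12, named after its values were seen, read 809, 836 and 311, so that B2 was the low array, by 1.38.

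Of the tight junction scaffold and polarity genes (27 of 31 measured), 7 were higher in both arrays and 11 lower, and the medians were -0.15 and -0.062. MAGI3, a multi-PDZ scaffold, read 163, 48.6 and 63.3, a difference of -1.75 and -1.37. However, 1 of its 3 probe sets, a dim one at 25.6, 41.5 and 37.1, was higher in both arrays. DLG1, the basolateral polarity scaffold, read 999.6 untreated, 643 in B1 and 457 in B2, and 7 of its 7 probe sets lay below untreated in B1 and B2. PALS1, the scaffold of the Crumbs complex, was at -0.44 and -0.45 with both probe sets lower. These scaffolds lay on the same side of untreated as TJP1, but they were named for the size of their differences. Of the 27 measured, 7 were higher in both arrays and 9 were split.

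Other classical cadherins and catenins (10 of 13 measured) were higher in both arrays for 2 genes and lower for 4. PKP4, a p120-catenin relative, was at -0.56 and -0.40, with 4 of 5 probe sets lower in both, and the alpha-catenin-like CTNNAL1 at -0.12 and -0.081. CDH2, the N-cadherin of mesenchymal cells, was named after its values were seen. It read 166, 132 and 617, so B2 was 3.72-fold above untreated while B1 was below it, and its second probe set was also over 2-fold higher in B2 (1.03). CDH1 in the same array was at 0.055. Alpha-catenin CTNNA1 (-0.18 and 0.28) and plakoglobin JUP (-0.11 and 0.59), also named afterwards, had the order of arrays seen for CDH1, CDH3 and CTNNB1.

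Nectins and the actin linkers of adherens junctions (21 of 22 measured) were split evenly, 6 being higher and 6 lower in both arrays; the medians were -0.18 and 0.092. PLEKHA7, which ties p120-catenin at the adherens belt to microtubule ends, read 191, 90.9 and 43.7, a difference of -1.07 and -2.13, and both probe sets were lower. The actin-binding LMO7 was at -0.38 and -0.90, with 3 of 4 probe sets lower in both arrays and all but this brightest one dim. The actin polymerase EVL was at 0.098 and 0.74, but its second probe set was at -0.0043 and 0.027.

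Genes for cleavage and turnover of cadherin and EPCAM (13 of 15 measured) had medians of -0.020 and -0.059; 2 were higher in both arrays and 5 lower. ADAM10, the protease that sheds E-cadherin, read 1317, 1050 and 972, with 3 of 3 probe sets below untreated in B1 and B2. PSEN2, a gamma-secretase subunit, was at 0.29 and 0.43, but only 1 of its 3 probe sets was higher in both arrays. FHL2, a LIM-domain cofactor of beta-catenin, read 1524, 1511 and 837, so only B2 was clearly lower.

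The beta-catenin destruction complex and its upstream regulators (15 of 15 measured) had 6 genes above and 6 below untreated in both arrays and medians of -0.11 and 0.14. Of the lower genes 3 had an unadjusted p under 0.05 by limma, beside 2.09% of all genes. GSK3B, the kinase that marks beta-catenin, read 696, 244 and 327, a difference of -1.51 and -1.09, with 3 of 5 probe sets lower in both arrays and a mean over all 5 of -0.51. Its relative GSK3A was at 0.36 and 0.28. FBXW11, a ubiquitin ligase receptor for marked beta-catenin, read 686, 376 and 260, and both of its probe sets were lower. BTRC, the other such receptor (named after its values were seen), was at -1.001 and -0.69 with 4 of 5 probe sets lower in both.

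Among beta-catenin/TCF factors and targets (19 of 20 measured), 6 lay above untreated in both arrays and 8 below. TCF7L2, the TCF4 partner of beta-catenin, read 833 untreated, 172 in B1 and 284 in B2. The untreated array was high by 2.27 and 1.55 on the log2 scale, with all 7 probe sets below untreated in B1 and B2. ZNRF3, the ligase that removes Wnt receptors, read 397, 86.1 and 114 on its only probe set. LEF1 was at -1.45 in B1 but -0.15 in B2, and its 3 probe sets disagreed, all but the brightest being dim. The target CCND1, cyclin D1, named after its values were seen, read 1021, 841 and 2102, with both probe sets over 2-fold higher in B2 and lower than untreated in B1. Other listed targets, also named afterwards, went either way in B2. MYC was at 0.044 and 0.55, CD44 at -0.19 and -0.90, and DKK1 at -0.11 and -0.40, while AXIN2 was dim, at 0.16 and 0.14. The list medians were -0.17 in B1 and 0.037 in B2. CTNNB1 itself was at -0.044 and 0.29.

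Transcription factors and splicing regulators that act on junction genes (20 of 21 measured) had medians of 0.078 and 0.45; 8 were higher in both arrays and 4 lower. OVOL1, an epithelial repressor of mesenchymal genes, read 130, 349 and 404, with both probe sets above untreated in B1 and in B2. GRHL2, an activator of CDH1 and claudin genes, read 593, 198 and 305, a difference of -1.58 and -0.96. FOXC2, a mesenchymal factor, was at 0.17 and 1.22. Of the CDH1 repressors, named after their values were seen, SNAI2 read 882, 895 and 1447, while SNAI1 (31.0 to 46.9), ZEB1 (11.5 to 20.0) and ZEB2 (13.6 to 18) were dim in the 3 arrays.

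In span classes of genes the median difference was lower the longer the genomic span, the distance from a gene's first to its last annotated base; the junction genes followed that order only in part. Among genes whose mean log2 value reached 6, the median difference was 0.11 for the 2197 genes under 10 kb, 0.074 for 3024 genes of 10 to 30 kb, -0.093 for 3293 genes of 30 to 100 kb, -0.39 for 1094 genes of 100 to 200 kb and -0.52 for 593 genes over 200 kb. CLDN4 (1.70 kb, difference 0.58) and CLDN7 (3.31 kb, 0.33) are the shortest of the 9. In the class from 10 to 30 kb, CLDN1 (16.7 kb, 1.16) lay above both of these and EPCAM (17.7 kb) was at -0.066. In the class from 30 to 100 kb, CTNNB1 (40.9 kb, 0.13), CDH3 (88.5 kb, 0.083) and CDH1 (98.2 kb, -0.049) lay above the shorter EPCAM, and OCLN (65.6 kb) was at -0.34, below the longer CDH3 and CDH1. TJP1 spans 270 kb, and its -0.59 is close to the median of its class, where 73.4% of genes were lower in both arrays and 45.7% had a lower difference than TJP1. The lower genes MAGI3 (295 kb), GSK3B (273 kb), PLEKHA7 (237 kb), TCF7L2 (217 kb) and ZNRF3 (174 kb) are long as well, and OVOL1 (10.2 kb) is short. The part of span in these differences was not tested.

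**Figure D4:**
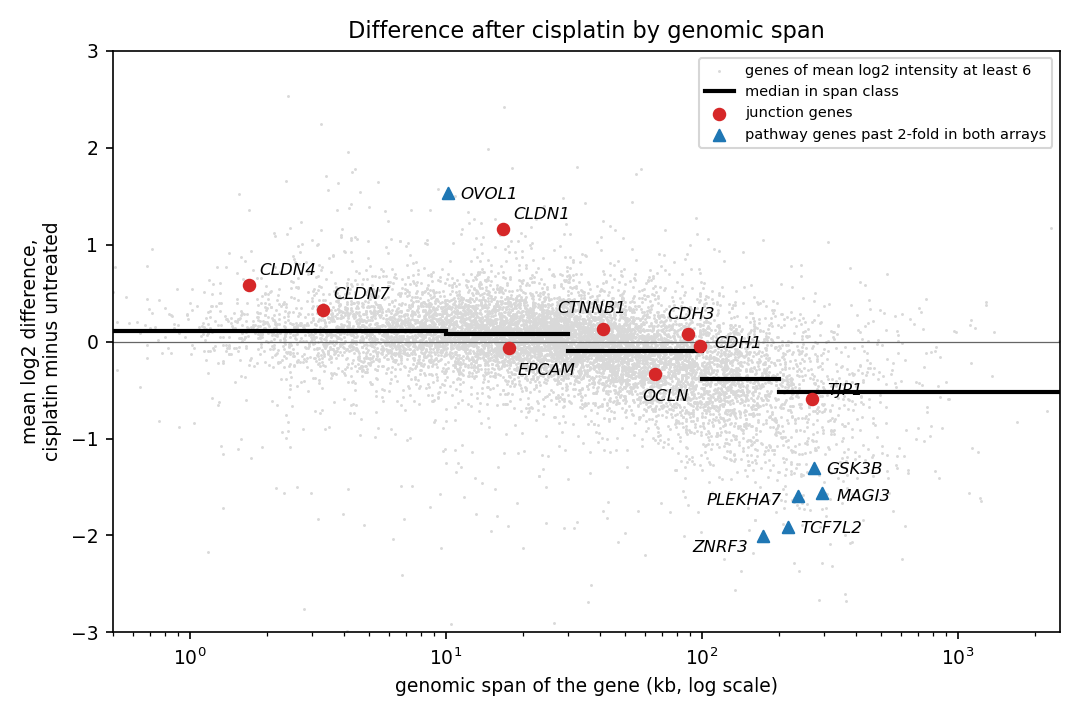
Mean log2 difference, cisplatin minus untreated, against genomic span in kb on a log axis for genes whose mean log2 value reached 6 (grey; 34 not drawn), the 9 junction genes (red) and the pathway genes past 2-fold in both arrays (blue triangles); black bars are medians of span classes. The medians go from 0.11 in the shortest class to -0.52 in the longest, and TJP1 at -0.59 sits next to the bar of its class.

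The genes nearest to CDH1 by Euclidean distance between their B1 and B2 differences, over the 3 arrays and 10208 genes, were GNB1 (-0.15 and 0.054), DNAJC4 (-0.15 and 0.056) and BZW2 (-0.15 and 0.048), and 325 genes lay within 0.1. Those nearest to TJP1 were CYREN (-0.32 and -0.87), PTPRE (-0.30 and -0.86) and AP4E1 (-0.35 and -0.87), with 55 genes within 0.1. With 3 arrays such likeness is common, as these numbers show.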

How the data were processed

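The deposited intensities, 1 per probe set and array (54675 probe sets, 3 arrays), were made by the authors with RMA (background correction, normalization across arrays, probe summary), per the submitters' processing notes. Its version and any detection calls are not stated in these sources. The values ran from 3.03 to 19645, with medians of 34.8, 35.9 and 35.6, so they are linear, and log2 was taken without a pseudocount. The number of arrays limits the precision.

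Without the 62 control probe sets, 41091 carried 1 symbol, 1801 several, and 11721 were unlisted; symbols were updated through gene numbers to GRCh38.p14 (19735 of 19775 genes found). The test was limma 3.58.1 (R 4.3.3; lmFit and eBayes on log2 values, Benjamini-Hochberg, threshold 0.05) over all genes and, separately, all probe sets, with 1 residual and 2.01 prior degrees of freedom for genes. It takes the spread of the untreated array, which has no replicate, from the cisplatin arrays. The script was tested on simulated data. A size rule asked for 2-fold in both cisplatin arrays.

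Beside the junction genes, the text names up to 3 genes per list with the largest mean difference, of one direction in both arrays and a mean log2 value of at least 6, and the 3 genes nearest to CDH1 and to TJP1; others are marked. The members and lists were chosen with earlier results of these data known. Alternatives covered dim features, quantile normalization, median centring, a pseudocount of 16, an intensity trend, averaged probe sets, 1.5-fold and each cisplatin array alone. 0 columns were left unused.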

Additional observations from a re-analysis of the deposited data

How the results depend on the processing

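No alternative changed the limma count of 0 junction genes or 0 probe sets, a test that 1 residual degree of freedom leaves with little reach, and at 1.5-fold the size rule also took none. Counts moved with the cisplatin array used. With 1 array left out, the junction genes past 2-fold ranged from 0 to 1 higher (CLDN1, in B2 alone), and their probe sets from 0 to 2; genes higher than untreated ranged from 3 to 6 and lower from 3 to 6, and probe sets from 6 to 11 higher and from 7 to 12 lower. The median difference of the 9 genes was 0.083 with both arrays, 0.29 with B2 alone and -0.044 with B1 alone, and 0.045 to 0.097 under the other alternatives. Of 132 alternatives for single genes and probe sets, 124 kept the direction. That count includes the intensity trend and the limit to brighter features, which leave each difference as it is and so could not change a direction. Values with B1 alone and B2 alone differed in sign for CDH1 (-0.15 and 0.055), its dimmer probe set (-0.40 and 0.32), CDH3 (-0.20 and 0.37), CTNNB1 (-0.044 and 0.29), the dimmer CLDN1 probe set (-0.12 and 1.26), the dimmer CLDN4 probe set (0.073 and -0.32) and the second-brightest OCLN probe set (-0.29 and 0.16). Quantile normalization turned this OCLN probe set to 0.040. CLDN1, CLDN4, CLDN7, EPCAM, OCLN and TJP1 kept their direction in every alternative run, by representative probe set or the mean over probe sets. With each array alone no test was possible, for want of a residual degree of freedom. Dim probe sets cannot be told from undetected ones. No paired analysis was possible because the untreated group has 1 array and no replicate number in the labels.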
